A study of Rattus norvegicus with 31 samples.

Results

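The genes of fatty acid synthesis were followed in peripheral blood mononuclear cells (PBMC, which are mostly lymphocytes and monocytes) of adult rats. They are 9 listed genes, taken by name from the non-control spots of the arrays with every probe of each: the factors Srebf1 and Mlxipl, the enzymes Acly, Acaca, Fasn and Me1, the elongase Elovl6 and the desaturases Fads1 and Fads2. The arrays carried 14 probes for them among 41012 probes in all. Of these, 13 probes of 8 genes passed the filter on dim signals, and these 8 genes stood among 22262 tested features. The samples were offspring of 16 mated rats. The CR-L group (13 samples) had dams restricted in calories by 20% on days 1 to 12 of pregnancy and received leptin, a hormone of fat tissue that milk also contains, while suckling until postnatal day 21, at 1.0 ng on the first day and 43.8 ng on the last, set at 5 times the intake from milk. The CR group (11 samples) had equally restricted dams and normal lactation, and the group labelled WT (7 samples) had unrestricted dams and normal lactation. All were fed chow for 4 months before blood was taken. Both sexes were used, and the labels give neither sex nor litter per sample. The 31 samples come from at most 16 litters, so some share a dam and p-values may be too small.

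Fatty acid synthesis in the cytosol starts from citrate, which Acly (ATP citrate lyase) cleaves to acetyl-CoA. Acaca (acetyl-CoA carboxylase) turns acetyl-CoA into malonyl-CoA, and Fasn (fatty acid synthase) builds palmitate from both, using NADPH that Me1 (malic enzyme) helps to supply. Elovl6 lengthens palmitate, and the desaturases Fads1 and Fads2 act on polyunsaturated fatty acids. The gene Srebf1 encodes SREBP-1, and Mlxipl encodes ChREBP, the factors known in liver and fat to switch these enzymes on after feeding. Blood leukocytes use the pathway for membrane lipids, in particular when lymphocytes are activated.

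The set of rat promoter windows used here (RefSeq, GRCr8), of 250 bases before the transcription start, covered 6 of the 9 genes. This set held none for Fasn, Acaca and Elovl6, so the promoters of these were not searched. The 4 windows below are shown because Me1 and Fads1 were the genes that varied most between animals, while Acly and Srebf1 differed little between groups. Sequences run 5′ to 3′ on the strand of the gene, which is the plus strand for Fads1 and the minus strand for the other 3. Capitals mark every match, on either strand, to CCAAT (the CCAAT box), GGGCGG (a GC box) or TGACNNNGC (the core of the antioxidant response element), where N is any base. The Me1 window lies at chr8:96540245-96540494, the Fads1 window at chr1:216252442-216252691, the Acly window at chr10:85963632-85963881 and the Srebf1 window, that of its second listed start, at chr10:45519011-45519260.
Me1: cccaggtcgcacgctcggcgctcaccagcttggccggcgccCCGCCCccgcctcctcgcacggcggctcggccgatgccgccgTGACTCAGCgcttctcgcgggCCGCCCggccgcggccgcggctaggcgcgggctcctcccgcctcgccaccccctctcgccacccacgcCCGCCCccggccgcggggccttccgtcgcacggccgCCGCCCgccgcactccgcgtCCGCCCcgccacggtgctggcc
Fads1: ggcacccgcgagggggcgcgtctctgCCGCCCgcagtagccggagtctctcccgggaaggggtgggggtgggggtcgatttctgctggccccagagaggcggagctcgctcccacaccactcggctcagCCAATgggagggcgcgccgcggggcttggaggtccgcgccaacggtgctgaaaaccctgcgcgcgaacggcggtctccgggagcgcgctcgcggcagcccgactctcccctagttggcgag
Acly: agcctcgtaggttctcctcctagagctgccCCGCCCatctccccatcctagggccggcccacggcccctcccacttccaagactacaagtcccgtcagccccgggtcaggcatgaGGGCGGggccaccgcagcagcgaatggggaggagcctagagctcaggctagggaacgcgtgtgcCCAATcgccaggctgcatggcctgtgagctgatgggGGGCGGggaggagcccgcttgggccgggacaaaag
Srebf1: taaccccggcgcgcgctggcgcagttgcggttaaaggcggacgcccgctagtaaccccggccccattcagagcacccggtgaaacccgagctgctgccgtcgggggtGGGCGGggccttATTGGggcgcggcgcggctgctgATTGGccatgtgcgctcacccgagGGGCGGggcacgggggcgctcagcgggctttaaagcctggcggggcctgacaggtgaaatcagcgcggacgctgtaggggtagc
The Me1 window was the richest in G and C of the 4, at 83.2%, and held 5 GC boxes, no CCAAT box and 1 antioxidant response element core, 167 bases before the start. The Fads1 window held 1 CCAAT box and 1 GC box at 73.2% G and C. The Acly window held 3 GC boxes and 1 CCAAT box at 68% G and C, and the Srebf1 window held 2 of each at 70.4%. None of the matches overlapped another. Among 33469 rat windows of the same length, 34% held a CCAAT box, 30.5% a GC box and 10.1% the antioxidant response element core. Also searched on both strands were the sterol regulatory element TCACNCCAC, which SREBP proteins are known to bind, and the E-box CACGTG, a form of which belongs to known ChREBP sites. In these spellings the sterol regulatory element lay in 0.974% of all windows and the E-box in 5.59%, and neither lay in any of the 4. Other forms of these elements were not searched, so their absence from the windows is not shown. A match is a description of letters and not of a bound site.

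Expression was read on 2-colour arrays as the log2 ratio of each sample, in red, over one reference pool of the same cells, in green. Levels of different genes cannot be compared on this scale, and 0 means equal to the pool. Median red intensity per array was 69.8 to 93.9 except in WT replicate 6, which stood apart at 235, against a median local background of 27 to 30.5. On that array 83.6% of red spots were well above background, and on the other arrays 57.5% to 65%. Of the markers of the labelled cells, all 8 listed for T cells, all 8 for monocytes and 6 of 8 for B cells were measured above the filter. So were all 8 listed for NK and cytotoxic cells, all 8 for erythroid cells and 6 of 8 for granulocytes. In CR and CR-L together against WT, limma called 2 of 8 T cell markers higher (adjusted p under 0.05), and 2.15% of all features. No other marker of these lists was called. In this comparison, 7 of 8 T cell, 8 of 8 NK and cytotoxic and 7 of 8 erythroid markers lay above 0. Below 0 lay all 6 B cell, all 8 monocyte and 5 of 6 granulocyte markers. The erythroid markers went opposite ways in CR-L and CR. Against WT, 8 of 8 lay above 0 in CR-L (median 0.37) and 1 of 8 in CR (median -0.21). In CR-L against CR all 8 lay above 0 (median 0.66), and none was called in these comparisons. Monocyte markers lay below 0 for 8 of 8 in CR and 5 of 8 in CR-L, against WT. Of the 7 markers listed for fat cells, in which the pathway is also strong, Adipoq and Lep were well above background on 1 array each, Fabp4 on 2, Cidec on 3 and Plin1 on 6, while Cfd and Retn were above it on all 31. Of the 7 listed for liver cells, Ttr and Cyp2e1 were above it on 1 array each, Alb and Fgb on 5, Apoa1 on 11, Serpina1 on 17 and Apob on 20, each at its most often detected probe. The part of such cells in the results was not tested. In bulk RNA of this kind, fewer cells of a type and less RNA per cell cannot be told apart.

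Fasn was the only one of the genes to pass the test against WT. With adjustment over all features (limma, Benjamini-Hochberg, threshold 0.05), 1 of 8 tested genes rose in CR-L and none fell. Of all features, 3.54% were called there, 2.14% as higher and 1.39% as lower. A single call among 8 genes does not set the list apart from these shares. By p, Fasn ranked 280 among the 22262 features, of which 787 were called. The log2 ratio of Fasn had a lowest value of -0.35, a median of 0.022 and a highest value of 0.36 in the 13 CR-L samples, against -0.40, -0.25 and 0.0061 in the 7 WT samples. The difference was 0.29 ± 0.066 on the log2 scale (SE), or 1.22-fold, with an adjusted p of 0.0112 in limma. Of the CR-L samples, 9 lay above the highest WT sample and 12 above the WT median. WT replicate 7 was the only WT sample above 0, and next to the other 6 WT samples only CR-L replicate 10 overlapped. Without WT replicate 6, the array of high intensity, the difference was 0.28, with an adjusted p of 0.0261 in limma. The call was lost with median centring of the arrays in place of loess (0.46, adjusted p 0.103 in limma) and in the authors' series table (0.28, adjusted p 0.119 in limma).

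In CR, none of the 8 genes passed, where 0.458% of all features did. Fasn in the 11 CR samples ran from -0.15 through a median of 0.0083 to 0.099, and each lay above the WT median. The difference from WT was 0.24 ± 0.068 (SE), or 1.18-fold, with an adjusted p of 0.0954 in limma. This call turned on 1 array of the third group: without CR-L replicate 10, which adds to the shared estimate of spread, the same difference had an adjusted p of 0.0436. The CR-L and CR comparisons share their 7 WT samples, so they are not independent of each other. With CR and CR-L together against WT, Fasn rose by 0.26 ± 0.061 (SE, adjusted p 0.0114 in limma), again the only one of the 8 genes, where 3.44% of features were called, 2.15% as higher and 1.29% as lower. Between CR-L and CR the difference of Fasn was 0.047, with a 95% interval from -0.071 to 0.17. No feature was called between these groups in limma, 0% of the table, and 518 had an unadjusted p under 0.05, none of them one of the 8 genes.

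**Figure D1:**
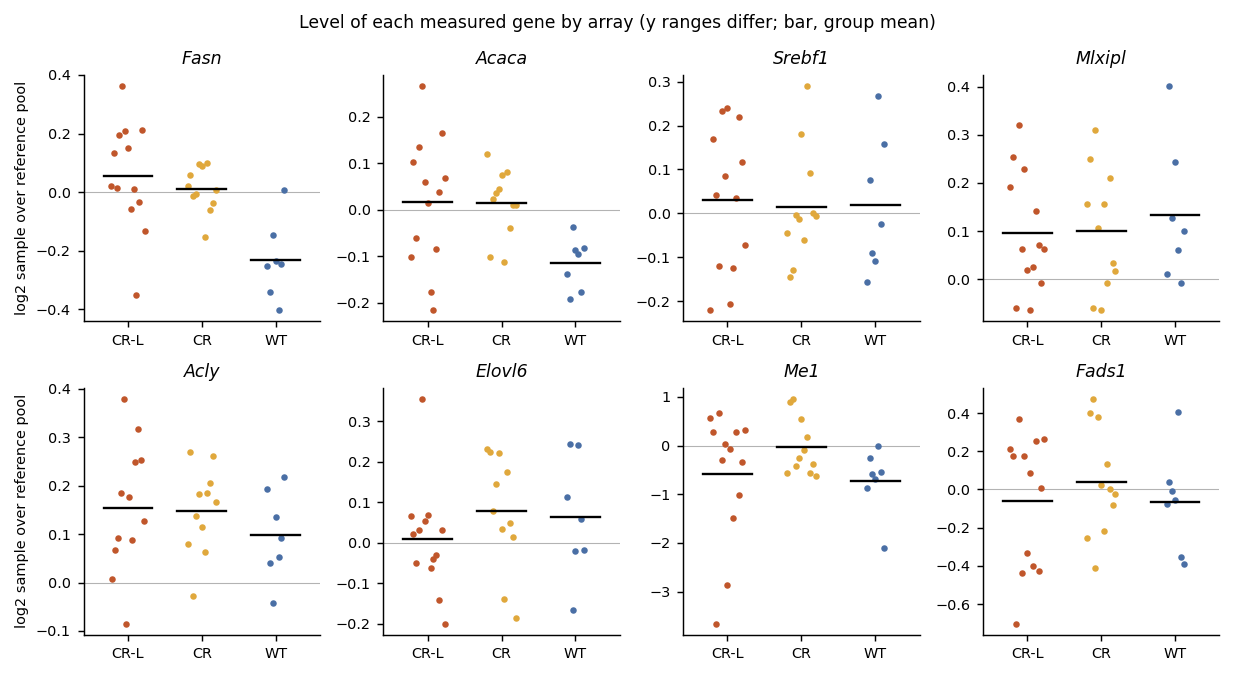
Log2 ratio of sample over reference pool for the 8 measured genes, 1 point per array, in CR-L (13, Acly 12), CR (11) and WT (7), with a bar at each group mean; each panel has its own y range. Fasn in WT lies between -0.40 and 0.0061, with most CR-L and CR samples above it, and Me1 reaches -3.66 in CR-L.

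Fasn has a second probe, and both read the same way. At the second probe the samples ran from -0.31 through 0.019 to 0.41 in CR-L and from -0.13 through 0.011 to 0.20 in CR, against -0.28, -0.13 and 0.054 in WT. The differences from WT were 0.17 ± 0.070 in CR-L and 0.15 ± 0.072 in CR (SE), with adjusted p of 0.192 and 0.374 in limma over all 26721 probes, so this probe did not pass. Over all probes, the 1 called probe of the 13 was the first Fasn probe, in CR-L, where 3.47% of probes were called. It was also the 1 called with CR and CR-L together, where 3.36% were. The files map neither Fasn probe to the genome, and they begin at bases 8985 and 8216 of the transcript.

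The arrays lay on 8 slides, 7 of which held 1 WT array beside CR and CR-L arrays. Within slides, Fasn was higher in CR-L than in WT on 6 of 7 slides, with a median difference of 0.35 and a range from -0.039 to 0.51. For CR over WT it was also higher on 6 of 7, with a median of 0.33 and a range from -0.054 to 0.40. The slide below 0 was in both cases slide 7, which carried WT replicate 7, the highest WT sample. With slide as a block over all arrays, the CR-L difference was 0.29, with an adjusted p of 0.0175 in limma.

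**Figure D2:**
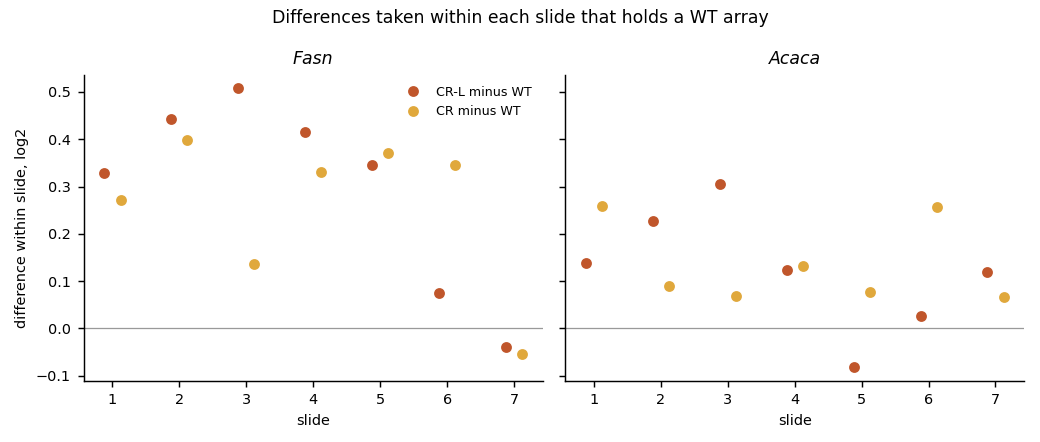
Differences of Fasn and Acaca within each of the 7 slides that hold a WT array, in log2 units, for CR-L minus WT and CR minus WT, each group's arrays on a slide averaged. Fasn lies above 0 on 6 of 7 slides in both comparisons, and Acaca on 6 of 7 for CR-L and 7 of 7 for CR.

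Acaca, the step before Fasn, lay in the same direction without passing. Its samples ran from -0.22 through 0.038 to 0.27 in CR-L and from -0.11 through 0.024 to 0.12 in CR, against -0.19, -0.096 and -0.038 in WT. Every WT sample was below 0, and 8 of 13 CR-L and 8 of 11 CR samples were above the highest of them, yet the lowest CR-L sample was below all WT samples. The differences from WT were 0.13 ± 0.051 in CR-L and 0.13 ± 0.052 in CR (SE), with unadjusted p of 0.0144 and 0.0194 and adjusted p of 0.161 and 0.283 in limma. The used probe lies on rat build rn4 at chr10:72678945-72679004. Its other probe, dim at 61.8 to 259 units of red intensity, gave 0.040 and -0.0038 for the same comparisons, so the probes of Acaca disagreed. On slides, Acaca was higher in CR than in WT on 7 of 7, with a median of 0.089, and higher in CR-L than in WT on 6 of 7, with a median of 0.12.

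Acly, which feeds the pathway with acetyl-CoA, was among the bright genes of the set, at a red intensity of 7213 to 11383. Its log2 ratio ran from -0.085 through 0.15 to 0.38 in 12 CR-L samples and from -0.029 through 0.17 to 0.27 in CR, against -0.042, 0.092 and 0.22 in WT. One CR-L spot was set aside as an outlier by the scanner. The groups overlapped over most of their range, and the difference of CR-L from WT was 0.057, with a 95% interval from -0.052 to 0.17. That of CR was 0.051, from -0.060 to 0.16.

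The factors themselves differed little between groups. Srebf1 ran from -0.22 through 0.042 to 0.24 in CR-L and from -0.15 through -0.0055 to 0.29 in CR, against -0.16, -0.023 and 0.27 in WT. Its differences from WT were 0.013 in CR-L, with a 95% interval from -0.13 to 0.16, and -0.0027 in CR, from -0.15 to 0.14. The second Srebf1 probe gave -0.0028 and 0.0060 for the same comparisons. Mlxipl was dim, at 50.5 to 138 units of red intensity, and well above background on 30 of 31 arrays. Its log2 ratio was -0.064 to 0.32 in CR-L and -0.065 to 0.31 in CR, against -0.0082 to 0.40 in WT. Both of its differences from WT were below 0, -0.038 in CR-L and -0.033 in CR, and neither passed (adjusted p 0.821 and 0.883 in limma).

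Elovl6 ran from -0.20 through 0.022 to 0.35 in CR-L and from -0.19 through 0.078 to 0.23 in CR, against -0.17, 0.058 and 0.24 in WT. Its difference from WT was -0.056 in CR-L, with a 95% interval from -0.19 to 0.076, and 0.013 in CR, from -0.12 to 0.15. The dimmer second probe gave -0.13 in CR-L and -0.080 in CR, and it did not pass either (adjusted p 0.437 and 0.745 in limma). Fads2 did not pass the filter on dim signals. It was well above background on 1 array, WT replicate 6, the array of high intensity, where its red intensity was 100.4. On the other WT arrays its red intensity was 36.8 to 44.4, and in every CR and CR-L sample it was 33.7 to 46.9. Without the filter its difference from WT was -0.080 in CR-L and -0.095 in CR (adjusted p 0.615 and 0.603 in limma), from signals near background.

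Over the 8 tested genes, 6 lay above 0 and 2 below in CR-L against WT, with a median difference of 0.035, where the median of all features was 0.012. In CR against WT the counts were again 6 and 2, with a median of 0.076, where that of all features was also 0.012. Between CR-L and CR, 4 were above 0 and 4 below, with a median of -0.0013.

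**Figure D3:**
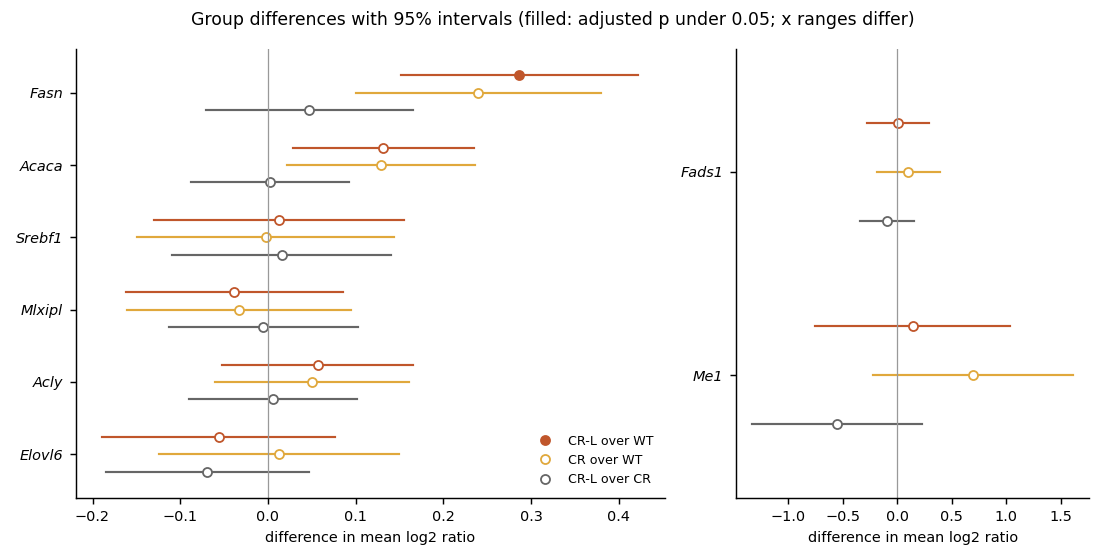
Difference in mean log2 ratio for each of the 8 tested genes, with 95% intervals, for CR-L over WT, CR over WT and CR-L over CR; filled points have an adjusted p under 0.05 and the right panel has a wider x range. Only Fasn in CR-L over WT, at 0.29, is filled, and the widest intervals are those of Me1.

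Me1 varied far more between animals of 1 group than the other genes. Its log2 ratio ran from -3.66 through -0.066 to 0.68 in CR-L and from -0.63 through -0.26 to 0.96 in CR, against -2.10, -0.59 and -0.017 in WT. CR-L replicates 3 and 7 were the lowest, at -3.66 and -2.87, and WT replicate 7 was the next, while no CR sample lay below -0.63. The SD within groups was 0.997, at the 99.7 percentile of all features, against 0.14 for the median feature. The second Me1 probe gave the same picture, with -2.57 as its lowest CR-L value and -1.75 as its lowest WT value. The used probe lies on rn4 at chr8:91839922-91839981. With this spread, the differences were 0.14 ± 0.44 for CR-L over WT, 0.69 ± 0.45 for CR over WT and -0.55 ± 0.38 for CR-L over CR (SE), none past the test. Within slides, Me1 was higher in CR than in WT on 7 of 7 slides, with a median of 0.73 and a range from 0.25 to 1.63, and higher in CR-L than in WT on 3 of 7.

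Fads1 was the other variable gene, with an SD within groups of 0.31, at the 93.1 percentile. It ran from -0.70 through 0.087 to 0.37 in CR-L and from -0.41 through 0.0030 to 0.47 in CR, against -0.39, -0.053 and 0.40 in WT. Its red intensity was well above background on 29 of 31 arrays, and the exceptions were CR-L replicates 3 and 7, the samples lowest in Me1, so background limits their values. The difference from WT was 0.0051 ± 0.14 in CR-L and 0.10 ± 0.14 in CR (SE), and neither passed. The probe lies on rn4 at chr1:212684643-212684702.

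Me1 and Fads1 went up and down together, and with platelet genes. Across the 31 samples, after group means were removed, Me1 and Fads1 correlated at r = 0.78 and rho = 0.80. The adjusted permutation p over the 28 pairs of genes was 0.00028 for both, from the smallest p that 100000 resamples can give, 1e-05. Without CR-L replicates 3 and 7 the r was 0.77, and within groups it was 0.85 in CR-L, 0.68 in CR and 0.74 in WT. The mean of 7 platelet markers, of 8 listed, all 7 well above background on every array, ran from -3.11 through -0.16 to 0.93 in CR-L and from -0.61 through -0.053 to 0.82 in CR, against -1.58, -0.32 and 0.28 in WT. Its lowest samples were again CR-L replicates 3 and 7 and WT replicate 7. Like Me1, all 7 platelet markers lay above 0 in CR against WT (median 0.45). In CR-L against WT 3 of 7 did (median -0.041), and in CR-L against CR 0 of 7 (median -0.41). None of them was called in these comparisons. Me1 correlated with the platelet mean at r = 0.97 and rho = 0.95, and at 0.94 without CR-L replicates 3 and 7. Fads1 did so at r = 0.78 and rho = 0.84, and at 0.79 without them. Both had an adjusted permutation p of 0.00028 over the 56 relations of 8 genes with 7 blood cell lists. With deviations taken from slide means in place of group means, r was 0.97 for Me1 and 0.82 for Fads1.

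After a regression on the platelet mean within groups, the correlation of Me1 with Fads1 was 0.11, with an adjusted permutation p of 0.856. With the platelet mean as a covariate, the SE of the Me1 differences was 0.10 for CR-L over WT and 0.11 for CR over WT, and the differences were 0.15 and 0.25, neither past the test (adjusted p 0.501 and 0.336 in limma). For CR-L over CR it was -0.099 ± 0.092 (SE). The covariate left Fasn in CR-L over WT at 0.29, with an adjusted p of 0.0105. This setting was chosen after the samples lowest in Me1 had been seen. In the other lists, B cell markers and Elovl6 passed by rank (rho -0.54, adjusted permutation p 0.0364) and not by Pearson's r (-0.47, adjusted permutation p 0.199).

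Fasn and Acaca formed the other pair that passed. They correlated at r = 0.61 and rho = 0.68 over the 31 samples with group means removed, with adjusted permutation p of 0.0203 and 0.00322. Without WT replicate 5 and CR-L replicate 10, the samples farthest from the median of Fasn, r was 0.66. With slide means removed in place of group means it was 0.69, a value in which group differences remain. Within groups r was 0.65 in CR-L, 0.59 in CR and 0.48 in WT. After the regression on the platelet mean, r was 0.64. Srebf1 and Fasn did not pass, at r = 0.26 and an adjusted permutation p of 0.502. Srebf1 and Acaca correlated at r = 0.48 with an adjusted permutation p of 0.101, and at 0.55 with 0.026 after the platelet regression. With slide means removed in place of group means, r of Srebf1 and Acaca was 0.58, and in red alone, with group means removed, it was 0.55.

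**Figure D4:**
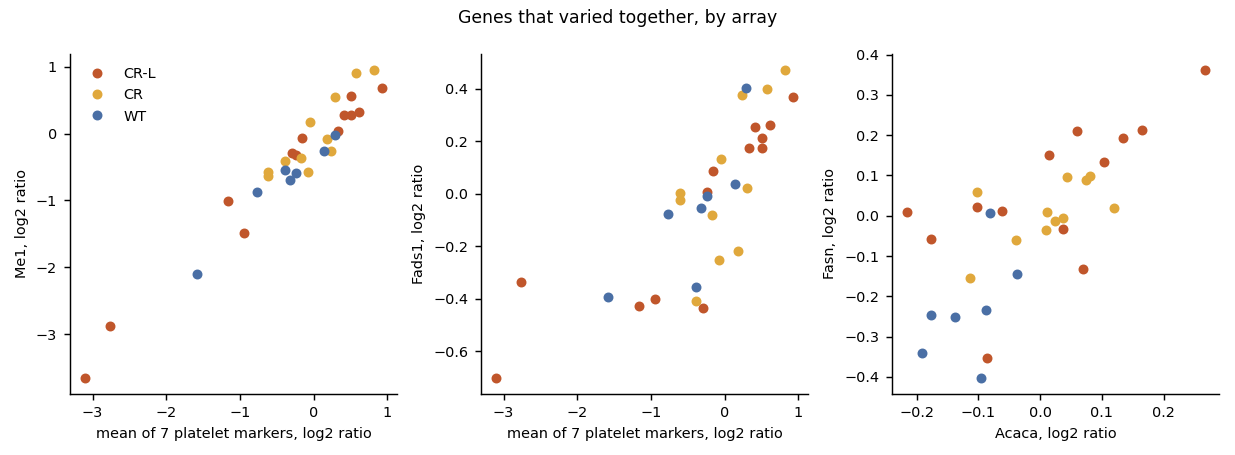
Log2 ratios by array of Me1 and of Fads1 against the mean of 7 platelet markers, and of Fasn against Acaca, with CR-L, CR and WT arrays in different colours. Me1 follows the platelet mean in all 3 groups (r = 0.97 with group means removed), Fads1 less closely (0.78), and Fasn and Acaca spread along a diagonal (0.61).

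The features most like each gene over the 31 samples, with group means removed, were named by the highest Pearson's r, as a description without a test. Arrays share labelling and intensity, and cell makeup moves many genes at once. Those nearest to Me1 were Arhgap28, Ltbp1, Tmem117, Pla1a and F2rl2, all at r = 0.98. F2rl2 encodes a thrombin receptor that mouse platelets carry, and Ltbp1 encodes a protein that binds latent TGF-beta. Nearest to Fads1 were Trpc6 at 0.91, and Liph, Alg6, Triap1 and Nrg2 at 0.89 to 0.90. Nearest to Fasn were Nup210, a protein of the nuclear pore, Comtd1, Chpf2 and Chaf1a, a subunit of a chromatin assembly factor, all at 0.75. Acaca lay nearest to Anxa6 at 0.82, then to Insl3, Nle1, Slc19a1 (the reduced folate carrier) and Cad (the enzyme that starts pyrimidine synthesis), all at 0.80. Srebf1 lay nearest to Slc31a1, a copper transporter, at 0.81, and then to Armc8, Dpysl2 and Palb2 at 0.77 to 0.79. For Acly these were Stag1 at 0.78, then Pphln1, Spsb3, Psmc1 and Tmem208, down to 0.73. For Elovl6 they were Zbtb8a at 0.69, then Asnsd1, Fam177a1, Zfpm2 and Nolc1, down to 0.62. Mlxipl lay nearest to Pde1b and Acot11 at 0.77, then to Ghrhr, Rnase11 and Col8a1 at 0.65 to 0.67, the last 3 well above background on 11, 9 and 16 arrays.

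Around these genes, 6 lists of related genes were read in the same fit. Of 19 tested regulators of SREBP and ChREBP, 1 rose in CR-L against WT and none fell, where 2.14% of all features were called higher and 1.39% lower, so the count is near the background. The gene was Insig2, whose protein holds SREBP precursors in the endoplasmic reticulum. Insig2 ran from -0.26 through 0.073 to 0.22 in CR-L, against -0.39, -0.15 and -0.011 in WT, a difference of 0.22 ± 0.063 (SE, adjusted p 0.0471 in limma). In CR it ran from -0.19 to 0.24, and the difference was 0.20 ± 0.065 (SE, adjusted p 0.155 in limma). Its other probes gave 0.066 and -0.11 in CR-L and did not pass, so the probes of Insig2 disagreed. Scap, which escorts SREBP to the Golgi, had a difference of 0.16 in CR-L and 0.16 in CR (adjusted p 0.14 and 0.234 in limma). Insig1, which also retains SREBP precursors and was named after its values were seen, had the largest difference of the list and lay the other way, at -0.26 in CR-L and -0.34 in CR (adjusted p 0.295 and 0.259 in limma).

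Of 15 tested genes of acyl-CoA synthesis and glycerolipid assembly, 1 rose in CR-L and none fell, again near the 2.14% called higher and 1.39% called lower among all features. Agpat1, which acylates lysophosphatidic acid on the way to phospholipids and triglyceride, ran from -0.026 through 0.16 to 0.44 in CR-L and from 0.00033 through 0.13 to 0.32 in CR, against -0.13, -0.069 and 0.015 in WT. The highest WT sample lay just above the lowest CR sample and above the lowest CR-L sample. The differences from WT were 0.24 ± 0.053 in CR-L and 0.22 ± 0.055 in CR (SE), with adjusted p of 0.00754 and 0.0523 in limma, and CR-L differed from CR by 0.016. Agpat3, of the same family, had 0.15 in CR-L and 0.16 in CR (adjusted p 0.224 and 0.295 in limma).

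Of 12 tested genes of other elongases, desaturases and the elongation cycle, none passed in CR-L, where 3.54% of all features did, or in CR alone, where 0.458% did. With CR and CR-L together against WT, where 3.44% of all features were called, 1 of the 12 passed. Hacd3, a dehydratase of the elongation cycle, rose by 0.24 ± 0.065 (SE, adjusted p 0.0306 in limma). It ran from 0.0053 through 0.23 to 0.53 in CR-L and from 0.12 through 0.23 to 0.49 in CR, against -0.15, 0.11 and 0.17 in WT. Its other probes lay in the same direction, at 0.19 and 0.086, without passing. Scd2, a stearoyl-CoA desaturase, had a difference of 0.26 ± 0.087 in CR-L (SE, adjusted p 0.0892 in limma), and its other probes gave 0.069 and 0.088.

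None of the 13 tested genes that supply acetyl-CoA, malonyl-CoA and NADPH passed, and at the 3.54% called among all features in CR-L a list of this size may well hold no call. The smallest p values were those of Idh1, a cytosolic source of NADPH, at 0.33 ± 0.10 in CR-L (SE, adjusted p 0.0734 in limma), and of Aacs, at 0.15 in CR-L and 0.19 in CR (adjusted p 0.2 and 0.18 in limma). None of the 8 tested genes of mitochondrial fatty acid synthesis passed, with Mcat at 0.24 ± 0.072 (SE, adjusted p 0.0617 in limma) and Lipt2 at 0.14 in CR-L. The other Mcat probe gave 0.060. None of the 8 tested AMPK subunits and upstream kinases passed either. Prkaa1, a catalytic subunit of the kinase that phosphorylates and inhibits acetyl-CoA carboxylase, had -0.12 in CR-L (adjusted p 0.171 in limma), and Prkag1 had 0.11. The other Prkaa1 probe gave -0.011 in CR-L and 0.076 in CR, against -0.12 and -0.096 at the used probe, so the probes of Prkaa1 disagreed. In CR-L against WT the medians of the lists were 0.034 for the regulators, 0.078 for the supply genes, 0.015 for the mitochondrial genes, 0.039 for the elongases and desaturases, 0.048 for glycerolipid assembly and 0.044 for AMPK, where that of all features was 0.012. No gene of these 6 lists was called lower, where 1.39% of all features were in CR-L, 0.108% in CR and 1.29% with both together, so a count of 0 is near the background.

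**Figure D5:**
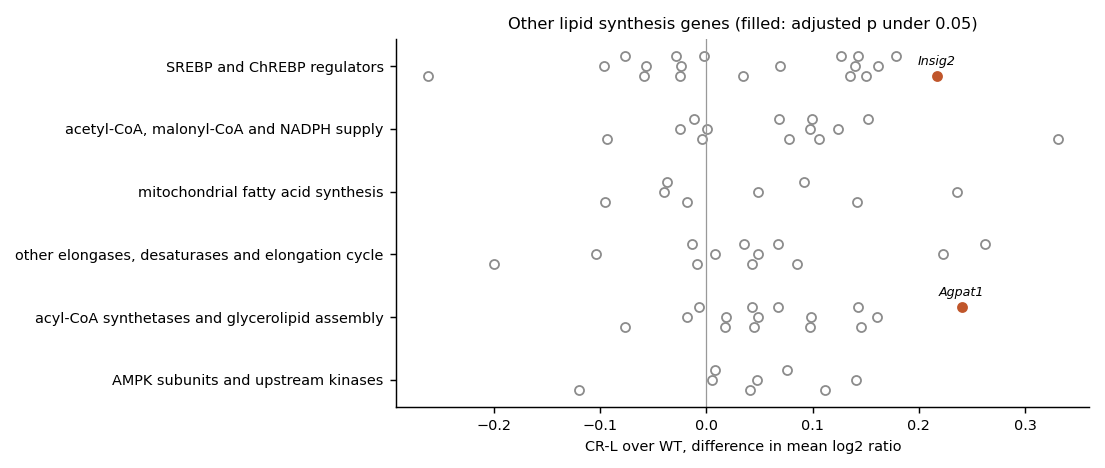
Difference in mean log2 ratio, CR-L over WT, for each tested gene of the 6 related lists, 1 point per gene; filled points have an adjusted p under 0.05. Insig2 at 0.22 and Agpat1 at 0.24 are filled, and the remaining points lie on both sides of 0.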

How the data were processed

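The data are 31 Agilent 2-colour arrays, each with 1 individual PBMC sample in Cy5 and a common pool of samples in Cy3, per the labels. No dye was swapped, so a dye effect that is equal on all arrays cancels between groups. The authors deposited scanner files with spot and background intensity and a log10 ratio per spot, made, per the submitters' processing notes, with Agilent Feature Extraction 10.7.3.1. Flags for background, saturation and outliers are other columns of the deposited files. The authors also deposited a series table of log2 values, whose making is not given in the sources used here. It tracked log2 red intensity (lowest correlation 0.983), and each column had a median of 8.17. It served as an alternative.

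Intensities were corrected by normexp with an offset of 50 and normalized by loess within arrays (limma 3.58.1, R 4.3.3). Of 45018 spots, 1639 control spots and 0.408% outlier values were left out. Kept were probes whose red signal was well above background on 7 or more arrays, and the probe of highest mean intensity stood for each gene. Symbols were updated through RefSeq (GRCr8) for 18971 probes by accession and 219 by an accession in the description. A current symbol named 2996 more and an older one 204, 1007 stayed as the file names them and 17615 were without a symbol. The files give probe positions on rn4.

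Groups came from the sample titles and were compared by lmFit and eBayes over all 31 arrays, two-sided, with Benjamini-Hochberg adjustment over the whole table. The labels state no test. Correlations used 100000 permutations within groups, adjusted over each family. The limma fit was checked on simulated data with independent noise for each feature and array. Those data held no shared litters and no correlated genes, so the check covers neither. Its outcome is not given here, and no conclusion on called or uncalled genes is drawn from it. Named were all 9 genes with every probe, each related gene past the threshold (otherwise the 2 of a list with the smallest p), and the 5 features nearest to each gene, of which some are not reported here. The genes and lists were chosen with earlier results of these data known. No arrays repeated a sample (highest correlation between arrays 0.784). The number of arrays limits the precision. Alternatives changed background correction, normalization, channel, source, filter, probe choice, blocks, covariates and weights, and left out each array.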

Additional observations from a re-analysis of the deposited data

Results flagged for a closer look

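In WT, the group small enough for a test of single arrays, 5 of 17 measures had 1 array whose gap to the others, as a share of the group's range, passed Dixon's limit of 0.568. About 1 in 20 such measures would do so by chance if they were independent, which these are not. All 5 came from WT replicates 6 and 7. WT replicate 7 stood apart at both Me1 probes, at -2.10 where the other WT arrays were -0.87 to -0.017, and at -1.75 where they were -0.50 to 0.18. The same array was lowest at the dim second Acaca probe, at -0.20, where the others were 0.00078 to 0.15. Its platelet marker mean, -1.58, was the lowest in WT. Without it, the Me1 difference was -0.086 for CR-L over WT and 0.47 for CR over WT, and Fasn in CR-L over WT was 0.33, with an adjusted p of 0.00521 in limma. WT replicate 6 stood apart in array quality, with a median red intensity of 235 (others in WT 77.0 to 88.8) and 83.6% of red spots well above background (others 59.1% to 65.0%).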

How the results depend on the processing

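The Fasn call in CR-L over WT held in 12 of 14 alternatives and in each of the 31 fits that left out 1 array (0.26 to 0.33). Of the 12, quantile normalization between arrays could not differ, as it leaves log ratios as they are. The changes of filter also kept the Fasn log ratios and changed only which features were tested beside them. It was lost with median centring of arrays in place of loess (0.46, adjusted p 0.103 in limma), leaving 0 genes called, and in the authors' series table (0.28, adjusted p 0.119), also 0; both settings also gave 0 for CR and CR-L together. In CR over WT, array weights called Fasn (0.26, adjusted p 0.025), giving 1 gene; leaving out 1 array at a time gave 0.21 to 0.28 and 0 to 1 genes called. No setting called a feature between CR-L and CR. Called features split 477 higher to 310 lower in CR-L over WT and 78 to 24 in CR over WT, but 72 to 3 and 0 to 0 with median centring and 38 to 27 in CR over WT with Agilent's log ratio, and 14 to 20 there with red alone. Over all alternatives 0 to 383 features were called in CR over WT and 75 to 1012 in CR-L over WT. Without 1 array the ranges were 17 to 207 and 423 to 1099, both lowest without WT replicate 4 and highest without CR replicate 9 and CR-L replicate 10. The passing pairs of genes, 2, became 4 with slide means removed in place of group means and 6 with red alone. The cause of these changes was not tested.

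Whether the replicate numbers of the titles pair animals was not settled. Within each group the numbers ran in slide order, so arrays of the same number often lay on different slides. For example, replicate 4 lay on slide 4 in WT, on slide 3 in CR and on slide 2 in CR-L. With group means removed, same-numbered arrays correlated above 0.1 in 1 of 7 pairs of CR and WT. They did so in 3 of 7 pairs of CR-L and WT and in 3 of 11 of CR-L and CR. Arrays of different numbers were not set beside them, so these counts cannot exclude a pairing. With the replicate block, Fasn was 0.34 in CR-L over WT (adjusted p 0.0113 in limma), and 229 features were called in CR over WT, 921 in CR-L over WT and 0 between CR-L and CR. Differences near 0 that turned their sign under it were Elovl6 0.0055, Mlxipl 0.0035, Fads1 -0.013 for CR-L over WT, and Acaca -0.016, Mlxipl 0.0073 for CR-L over CR.

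Uncalled differences near 0 changed sign elsewhere too. With median centring they were Srebf1 0.16 for CR over WT, and Elovl6 0.074 for CR-L over WT, and Mlxipl 0.00028 for CR-L over CR. In the authors' series table they were Srebf1 0.0027, Elovl6 -0.022 for CR over WT, and Fads1 -0.0098 for CR-L over WT. With a gene's probes averaged they were Srebf1 0.0016, Elovl6 -0.034 for CR over WT. With the platelet covariate they were Srebf1 0.017, Fads1 -0.010 for CR over WT, and Srebf1 -0.0046, Acly -0.011, Mlxipl 0.017, Fads1 0.016 for CR-L over CR. With array weights they were Srebf1 0.024, Elovl6 -0.017 for CR over WT, and Fads1 -0.0062 for CR-L over WT, and Srebf1 -0.0018, Acly -0.0029 for CR-L over CR. With Agilent's log ratio they were Elovl6 -0.0085 for CR over WT, and Srebf1 -0.0045, Fads1 -0.17 for CR-L over WT, and Acaca -0.011, Mlxipl 0.010 for CR-L over CR. With red alone they were Elovl6 -0.017 for CR over WT, and Acly -0.020 for CR-L over WT, and Acaca -0.027, Acly -0.020 for CR-L over CR. With 4 lineage marker means as covariates they were Elovl6 -0.040 for CR over WT, and Srebf1 -0.042, Fads1 -0.026 for CR-L over WT, and Srebf1 -0.0031, Acly -0.0080, Mlxipl 0.0073 for CR-L over CR. With slide as a block it was Fads1 -0.030 for CR-L over WT. With 1 array left out, those that changed sign spanned 0. For CR over WT they were Srebf1 -0.032 to 0.039, Elovl6 -0.026 to 0.043, Mlxipl -0.057 to 0.012. For CR-L over WT they were Srebf1 -0.016 to 0.054, Me1 -0.086 to 0.40, Mlxipl -0.062 to 0.0065, Fads1 -0.050 to 0.083. For CR-L over CR they were Srebf1 -0.0019 to 0.043, Acaca -0.018 to 0.022, Acly -0.014 to 0.028, Mlxipl -0.024 to 0.016. Quantile normalization between arrays leaves log ratios as they are, and the filter on all 31 arrays removed Mlxipl and Fads1. Dim signal limits Mlxipl, Fads1 and Fads2.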
